A study of Mus musculus with 2 samples.

Results

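The interferon-induced genes and the interferon regulatory factors (IRFs) were followed in the livers of HFD-fed mice after infusion of either AAV-GFP or AAV-*Wee1-AS*. They were found by gene symbol: every symbol that begins with *Ifi*, *Isg*, or *Oas*, *Gbp*, *Irgm* or *Iigp* with a family number or letter, the *Irf* genes and both *Mx* genes. This gave 74 of the 45777 genes in the table (268 of 129299 transcripts), and 63 of the 74 had at least 10 counts in at least 1 library, as 15857 of all genes did. The rule itself uses names and no measured value.

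Liver RNA of C57BL/6 mice was measured by sequencing of poly-A RNA, with 1 library of AAV-GFP as the control and 1 library of AAV-*Wee1-AS*. Mice of both groups had eaten a HFD for 18 weeks from 7 weeks of age and had received their vector by retro-orbital injection at week 13, so that 5 weeks of the diet followed it. *Wee1-AS* is a long noncoding RNA transcribed antisense to *Wee1*, and the control vector carried GFP in its place. The vectors were AAV9 with a CMV promoter, which is not restricted to hepatocytes, and the sources do not state whether RNA of several mice was pooled. The design text speaks of 4 liver samples, of which 1 library per group was analysed here.

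The estimated counts summed to 55466182 in the AAV-GFP library and to 48079335 in the AAV-*Wee1-AS* library. All 8 hepatocyte markers were abundant in both libraries, with albumin (*Alb*) at 37459 and 53289 TPM (a level corrected for transcript length and scaled to the same sum in each library). With 1 library per group, no difference below has a replicate check and no test was possible. The 95% intervals given are exact (Clopper-Pearson) intervals of the ratio of 2 counts. They cover counting error only, treat PCR copies as independent reads, and compare these 2 libraries rather than the treatments. Ratios are AAV-*Wee1-AS* over AAV-GFP on the log2 scale, from counts scaled by the TMM method, with a prior count of 2.

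Type I interferons, released by cells that sense foreign or misplaced nucleic acid, act through IFNAR, JAK1 and TYK2, and assemble STAT proteins and IRF9 into the ISGF3 complex, which binds the interferon-stimulated response element (ISRE) of its target genes. Type II interferon, made mainly by T and NK cells, acts through IFNGR, JAK1 and JAK2 on STAT dimers that bind gamma-activated sites (GAS). IRF3 and IRF7 switch on the interferon genes themselves, and in the liver hepatocytes, Kupffer cells and endothelial cells all answer interferon.

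RefSeq promoter sequences (build GRCm38.p6, 250 bases before to 50 bases after the start) were matched for 55 of the 74 genes. The core of the ISRE was searched as GAAA, any 2 bases, and GAAA again, on both strands. It was present in 29 of the 55 promoters (52.7%), against 1079 of the 27025 genes with such an entry (3.99%). The GAS pattern, TTC and GAA with any 3 bases between them, can overlap the ISRE core, and it was present in 13 of the 55 (23.6%), against 9.55% of all genes. Among the 46 of these genes that also had enough counts, the ISRE core was present in 5 of 5 *Gbp* promoters, 6 of 7 PYHIN promoters, 5 of 6 of *Isg15* and the *Ifit* genes, 5 of 8 of the double-stranded RNA sensors and *Oas* genes, 2 of 5 *Ifitm* promoters and 1 of 8 *Irf* promoters. It was present in 2 of 3 of *Irgm1*, *Irgm2* and *Ifi47*, 0 of 3 of *Ifi30*, *Ifi35* and *Ifi44*, and not in *Isg20l2*. The *Gbp* genes on chromosome 5, *Iigp1*, *Ifi204*, *Ifi203-ps* and both *Mx* genes had no entry. Only 14 of the 25 genes more than 2-fold higher are thus covered. A match describes letters in this window and is not a measured binding site.

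The 160 bases before the start are shown for 5 of these genes, each of which holds the core more than once. They are ordered from higher to lower ratio, before the trends described below were removed. They are, in the same order, chr3:142559884-142560043 (plus strand), chr19:34583369-34583528 (plus strand), chr11:48871421-48871580 (minus strand), chr4:156200819-156200978 (minus strand) and chr5:120907526-120907685 (minus strand). Each is written 5′ to 3′ on the strand of its gene, and the capitals mark the ISRE core and overlapping copies of it. *Gbp3* has another listed start, whose window holds no core and is not shown.
Gbp3: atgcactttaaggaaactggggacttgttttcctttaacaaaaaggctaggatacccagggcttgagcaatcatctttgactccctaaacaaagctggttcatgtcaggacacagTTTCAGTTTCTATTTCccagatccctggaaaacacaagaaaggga
Ifit3: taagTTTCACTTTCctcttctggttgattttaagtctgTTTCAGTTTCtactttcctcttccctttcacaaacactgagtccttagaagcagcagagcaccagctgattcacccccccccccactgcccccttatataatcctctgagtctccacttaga
Irgm1: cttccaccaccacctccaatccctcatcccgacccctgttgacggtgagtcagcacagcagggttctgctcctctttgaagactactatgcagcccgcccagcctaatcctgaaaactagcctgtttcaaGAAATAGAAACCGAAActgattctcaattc
Isg15: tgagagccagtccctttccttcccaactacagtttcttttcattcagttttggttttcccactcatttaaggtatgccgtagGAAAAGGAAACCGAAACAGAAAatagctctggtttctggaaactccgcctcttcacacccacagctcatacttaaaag
Oas1a: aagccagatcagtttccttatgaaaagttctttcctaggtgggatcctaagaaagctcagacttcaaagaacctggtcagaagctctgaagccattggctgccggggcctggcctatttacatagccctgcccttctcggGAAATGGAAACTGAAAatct
The log2 ratios of these genes were 2.25 for *Gbp3*, 1.22 for *Ifit3*, 0.65 for *Irgm1*, 0.02 for *Isg15* and -0.67 for *Oas1a*. With the trends described below removed, their ratios were 1.70, 1.00, 0.16, 0.66 and -0.24, and the order was not kept. The part of the core in these ratios was not tested. Of these 46 genes, the 26 with the core had a median log2 ratio of 0.69, with 11 more than 2-fold higher and 0 more than 2-fold lower. The 20 without it had a median of -0.41, with 3 higher and 2 lower. Of all genes, 22.2% were higher and 8.71% lower. With the GC and length trends described below taken out, the medians were 0.13 and 0.04, and the core was present in 2 of the 4 genes more than 2-fold higher and in 1 of the 2 lower.

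Of the 63 genes measured, 25 (39.7%) were more than 2-fold higher in the AAV-*Wee1-AS* library, against 22.2% of all genes, and 4 (6.35%) were more than 2-fold lower, against 8.71%. The whole counting interval was past 2-fold for 18 higher genes (28.6%, against 16.0% of all genes) and for 2 lower genes (3.17%, against 3.72%). The median log2 ratio was 0.39 (95% order-statistic interval -0.08 to 1.04 across genes, which are not replicates), and that of all genes was -0.02. The 25 higher genes were 9 *Gbp*, 7 PYHIN and 4 *Ifit* genes, both *Mx* genes, *Iigp1*, *Ifih1* and *Ifi44*. The 4 lower genes were *Ifi27l2a*, *Ifi27l2b*, *Irf8* and *Ifitm6*.

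The level of the whole group was carried by a few genes. Summed over the 74 genes, it was 2602 TPM in the AAV-GFP library and 2090 TPM in the AAV-*Wee1-AS* library. *Ifitm3* alone made up 46.6% and 45.2% of it. Without the *Ifitm* genes the sums were 755 and 737 TPM. Only 3 genes, *Ifitm3*, *Ifitm2* and *Ifi27*, exceeded 100 TPM in either library, and the number above 1 TPM was 41 in the AAV-GFP and 48 in the AAV-*Wee1-AS* library. In bulk liver, fewer cells of a type and less RNA per cell cannot be told apart.

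**Figure D1:**
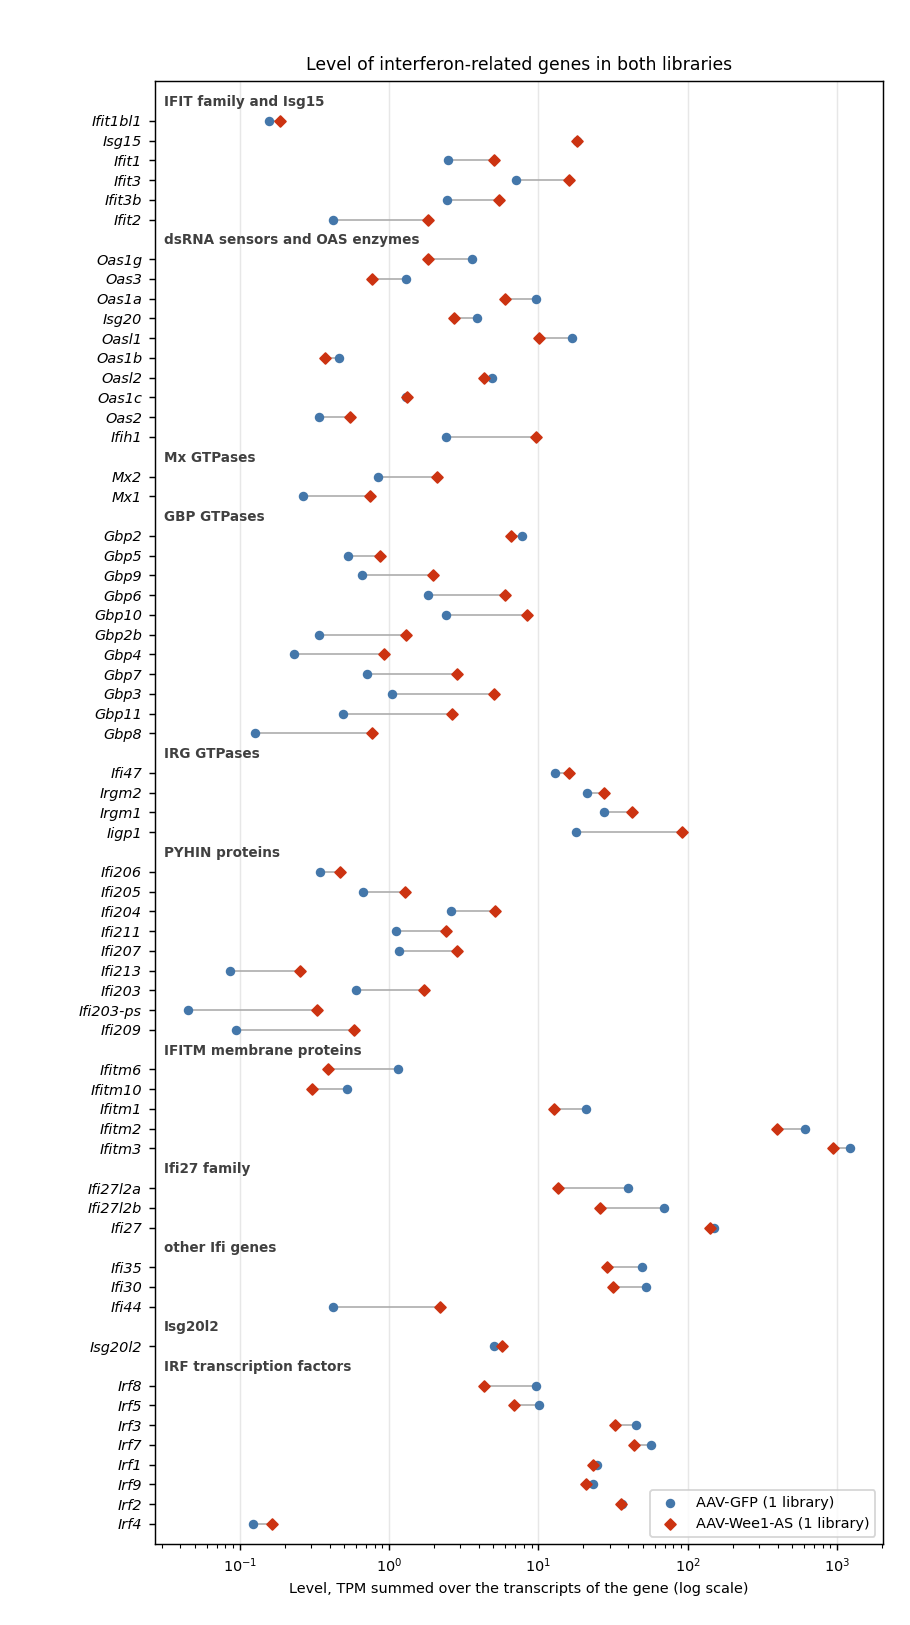
Level of 62 of the 63 measured genes in TPM (log axis), with 1 point per library, ordered by gene family and, within a family, by ratio. *Ifitm3* and *Ifitm2* stand at the top of the scale with the AAV-GFP point to the right, whereas most *Gbp* and PYHIN genes lie below 10 TPM with the AAV-*Wee1-AS* point to the right.

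The *Ifit* genes and *Isg15* encode the classical early products of type I interferon: IFIT proteins bind viral RNA, and ISG15 is a ubiquitin-like protein that is coupled to other proteins. Of the 6 measured, 4 were more than 2-fold higher and none was lower, against 22.2% and 8.71% of all genes, and with the trends described below removed 0 were higher and 1 was lower. *Ifit3* (chr19:34583119-34588982) had 462 counts in the AAV-GFP and 898 in the AAV-*Wee1-AS* library, or 7.06 and 16.1 TPM, a log2 ratio of 1.22 (1.06 to 1.39). *Ifit2* (chr19:34550550-34576534) went from 59 to 204 counts, a log2 ratio of 2.01 (1.63 to 2.50). Of the 4, only these 2 had intervals wholly past 2-fold. *Ifit1* (215 and 369 counts) and *Ifit3b* (162 and 321 counts) had log2 ratios of 1.04 and 1.24. *Ifit3* and *Ifit3b* are near copies, and 51.2% of the 50-base words of *Ifit3* also occur in *Ifit3b*, so the share of reads given to each is uncertain. *Isg15* itself was level, with 455 and 383 counts, 18.3 and 18.1 TPM and a log2 ratio of 0.02 (-0.18 to 0.21). The intervals of *Ifit3* and *Isg15*, whose promoters both hold the ISRE core, did not overlap before the trends were removed. With the trends removed, the log2 ratios of these genes were closer, at 1.00 and 0.66. *Ifit1bl1*, whose locus spans *Ifit1* and *Ifit3b*, was at 15 and 12 counts, and *Ifit1bl2* had 0 and 6 counts, too few for a ratio.

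Double-stranded RNA is detected by MDA5, the product of *Ifih1*, and by OAS enzymes. The active OAS enzymes make the 2-5A signal that activates RNase L, and the RNA levels below do not measure that activity. *Ifih1* (chr2:62595618-62646255) was the only gene of this family past 2-fold, with 430 and 1459 counts, 2.42 and 9.56 TPM, and a log2 ratio of 2.02 (1.87 to 2.18). With the trends described below removed, *Ifih1* stood at 0.67 and no gene of the family was past 2-fold. Of the 8 *Oas* and *Oasl* genes measured, 7 had a log2 ratio below 0, as 8010 of the 15857 genes did, and none was past 2-fold in either direction. All genes with a GC content of 50 to 55%, near that of most of these genes, had a median of -0.33, and with the trends described below removed 4 of the 8 lay above 0 and 4 below. The most abundant, *Oasl1*, had 1148 and 619 counts (16.8 and 10.1 TPM) and a log2 ratio of -0.63 (-0.77 to -0.49). *Oas1a* had 594 and 311 counts and a log2 ratio of -0.67 (-0.87 to -0.47), and *Oas1g* had 239 and 104 counts and a log2 ratio of -0.92 (-1.28 to -0.60). *Oas1a* and *Oas1g* share 57.6% of the 50-base words of *Oas1a*, so their values are not separate measurements. *Oas3* stood at 202 and 102 counts (-0.71), *Oasl2* at 507 and 375 (-0.17), and *Oas2*, the exception, at 64 and 90 counts (0.74, interval 0.28 to 1.24). The intervals of *Oasl2*, *Oas1b* and *Oas1c* included 0. *Isg20*, an exonuclease that degrades viral RNA, had 149 and 78 counts and a log2 ratio of -0.66 (-1.08 to -0.27). *Oas1d*, *Oas1e*, *Oas1f* and *Oas1h* had no count in either library.

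Guanylate-binding proteins (GBPs) coat and disrupt the vacuoles of intracellular pathogens, and their genes form clusters on chromosomes 3 and 5. All 11 were measured and 9 were more than 2-fold higher, each with its interval wholly past 2-fold, and none was more than 2-fold lower. Of all genes, 22.2% were higher, 16.0% with the whole interval past 2-fold, and of all genes with a GC content of 40 to 45%, where most *Gbp* genes lie, 55.1% were higher. The median log2 ratio was 1.82 over the 5 genes on chromosome 3 and 1.91 over the 6 on chromosome 5. *Gbp3* (chr3:142560016-142573213) had 97 and 390 counts, 1.04 and 5.01 TPM, and a log2 ratio of 2.25 (1.95 to 2.61), a 4.74-fold difference. *Gbp7* stood at 132 and 448 counts, a log2 ratio of 2.01 (1.74 to 2.32). *Gbp2b* (33 and 102 counts) had a log2 ratio of 1.82 (1.31 to 2.50). The remaining 2 genes of this cluster were within 2-fold. *Gbp2* (chr3:142620663-142638008), the most abundant of the family in the AAV-GFP library at 7.76 TPM, was at 6.59 TPM in the AAV-*Wee1-AS* library, with 628 and 452 counts and a log2 ratio of -0.21 (-0.39 to -0.03). *Gbp5* had 53 and 74 counts (0.72).

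All 6 *Gbp* genes on chromosome 5 were more than 2-fold higher. *Gbp10* had 280 and 822 counts (log2 ratio 1.81, 1.62 to 2.02) and *Gbp6* had 273 and 746 (1.71, 1.51 to 1.92). *Gbp10* shares 70.6% of its 50-base words with *Gbp6*, so these values too may be 1 signal divided between 2 genes. *Gbp9* had 121 and 287 counts (1.49), *Gbp11* 44 and 200 (2.39), *Gbp4* 37 and 129 (2.00) and *Gbp8* 19 and 92 (2.41). *Gbp6* and *Gbp10* led this cluster in both libraries, and the others stayed below 3 TPM.

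The Mx proteins are dynamin-like GTPases that block virus replication. In the annotation used here, all counts of *Mx1* and *Mx2* fell to noncoding RefSeq transcript models, so they do not measure Mx protein. Both genes were more than 2-fold higher with few counts: *Mx1* had 24 and 56 (log2 ratio 1.41, 0.77 to 2.24) and *Mx2* had 68 and 143 (1.31, 0.91 to 1.77). Both intervals reached below 2-fold, and of all genes 22.2% were more than 2-fold higher. The immunity-related GTPases (IRGs) act on pathogen vacuoles, and the IRGM proteins among them regulate the other members. All 4 found by symbol had intervals above 0, as 6195 of the 15857 genes did. With the trends described below removed, 2 of the 4 lay above 0 and 2 below. The IRG genes *Igtp*, *Tgtp1* and *Tgtp2* carry other symbols and are not among the 4. Their log2 ratios were 0.05, 1.07 and 1.17, or 0.14, 0.22 and 0.31 with the trends removed. *Iigp1* had 1935 and 8461 counts and 17.9 and 91.3 TPM, a log2 ratio of 2.39 (2.32 to 2.46) and a 5.24-fold difference. With the trends removed its log2 ratio was 0.80, within 2-fold. *Iigp1* was the 17th most abundant of the 74 genes in the AAV-GFP library and the 4th in the AAV-*Wee1-AS* library. *Irgm1* (1950 and 2555 counts, 0.65), *Irgm2* (2463 and 2683 counts, 0.39) and *Ifi47* (745 and 799 counts, 0.36) were within 2-fold.

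The PYHIN genes form a single cluster on chromosome 1 and encode relatives of AIM2 and IFI16, several of which bind DNA in the cytosol or nucleus. Of 12, 9 were measured, all 9 had a log2 ratio above 0, and 7 were more than 2-fold higher, 4 of them with the interval wholly past it. Of all genes, 22.2% were higher, but the share was 55.1% at a GC content of 40 to 45% and 65.4% below 40%, the range of these genes, and with the trends described below removed 2 of the 9 were higher. *Ifi204* was the most abundant, with 204 and 344 counts, 2.59 and 5.16 TPM and a log2 ratio of 1.01 (0.76 to 1.27). *Ifi207* had 137 and 281 counts (1.29), *Ifi203* 92 and 233 (1.58, 1.25 to 1.97) and *Ifi211* 66 and 122 (1.12). *Ifi211* shares 72.9% of its 50-base words with other genes of the group, and its value is uncertain. *Ifi209*, *Ifi203-ps* and *Ifi204* share 34.7%, 25.7% and 24.7%, so some of their reads may belong to related genes. *Ifi209* (11 and 57 counts, 2.42), *Ifi203-ps*, a pseudogene by its symbol (6 and 32 counts, 2.31), and *Ifi213* (11 and 26 counts, 1.34) rested on few reads. *Ifi205* (36 and 58 counts) and *Ifi206* (40 and 46 counts) were within 2-fold. *Ifi208* had 0 and 6 counts, *Ifi214* 0 and 3, and *Ifi202b* none.

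IFITM proteins sit in endosomal and plasma membranes and hinder virus entry. All 5 measured *Ifitm* genes had a log2 ratio below 0, as 8010 of the 15857 genes did. All genes with a GC content of 50 to 55%, where most *Ifitm* genes lie, had a median of -0.33. With the trends described below removed, 2 of the 5 lay above 0 and 3 below. *Ifitm3* (chr7:141009590-141010744) had 25904 and 17068 counts, 1214 and 944 TPM and a log2 ratio of -0.34 (-0.37 to -0.31). *Ifitm2* had 13204 and 7187 counts, 611 and 396 TPM and a log2 ratio of -0.61 (-0.66 to -0.57). *Ifitm1* had 477 and 246 counts (-0.69). The only one past 2-fold, *Ifitm6*, had 21 and 6 counts (-1.30, -3.14 to -0.19). *Ifitm10* had 25 and 11, and *Ifitm5* and *Ifitm7* had none.

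The *Ifi27* family encodes small mitochondrial and membrane proteins strongly induced by type I interferon. Before the trends described below were removed, this family held the largest differences in the lower direction. *Ifi27l2a* (chr12:103433873-103443680) had 606 and 177 counts, 39.6 and 13.4 TPM, and a log2 ratio of -1.50 (-1.76 to -1.27), or 2.83-fold lower. *Ifi27l2b* (chr12:103450898-103457223) had 2505 and 789 counts, 69.7 and 25.8 TPM, and a log2 ratio of -1.40 (-1.52 to -1.29), or 2.64-fold lower. Both *Ifi27l2a* and *Ifi27l2b* were within 2-fold with the trends removed, at -0.81 and -0.76. On that scale *Ifitm6*, *Ifit1bl1* and *Irf8* lay lower than these genes. *Ifi27*, whose interval in the table overlaps that of *Ifi27l2a*, was level at 4863 and 3821 counts (-0.08, -0.15 to -0.02). The strand setting of the counting is not given in the sources used here, so reads of overlapping genes may have been divided between them. *Ifi35* (2217 and 1099 counts, -0.75) and *Ifi30*, the lysosomal thiol reductase of antigen processing (1708 and 861 counts, -0.72), were lower but within 2-fold. *Ifi44* was higher, with 40 and 173 counts and a log2 ratio of 2.31 (1.87 to 2.91), and its neighbor *Ifi44l* had no count in either library. *Isg20l2*, a nucleolar relative of *Isg20*, had 484 and 459 counts (0.19).

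The 9 IRFs, the transcription factors of the system, were all measured, and only *Irf8* was past 2-fold. Of all genes, 22.2% were higher and 8.71% lower, and with the trends described below removed no IRF was past 2-fold. *Irf8*, which specifies dendritic cells and monocytes, had 904 and 345 counts, 9.58 and 4.32 TPM and a log2 ratio of -1.12 (-1.31 to -0.95). *Irf7*, the amplifier of type I interferon, was the most abundant IRF with 3409 and 2183 counts, 57.2 and 43.4 TPM and a log2 ratio of -0.38 (-0.46 to -0.30). *Irf3*, its constitutive partner, had 2968 and 1821 counts (-0.44), and *Irf5*, a macrophage factor, had 738 and 427 (-0.52) and overlaps *Tnpo3* in the annotation. On the scale with trends removed, *Irf8* stood at -0.93, and *Irf7*, *Irf3* and *Irf5* stood at 0.30, 0.26 and 0.11. *Irf9*, the DNA-binding part of ISGF3, had 1893 and 1455 counts (-0.12), *Irf1* had 1840 and 1398 (-0.13), and *Irf2*, its antagonist, had 2958 and 2503 (0.02, -0.05 to 0.10; -0.57 with trends removed). The lymphoid factor *Irf4* had 20 and 22 counts.

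**Figure D2:**
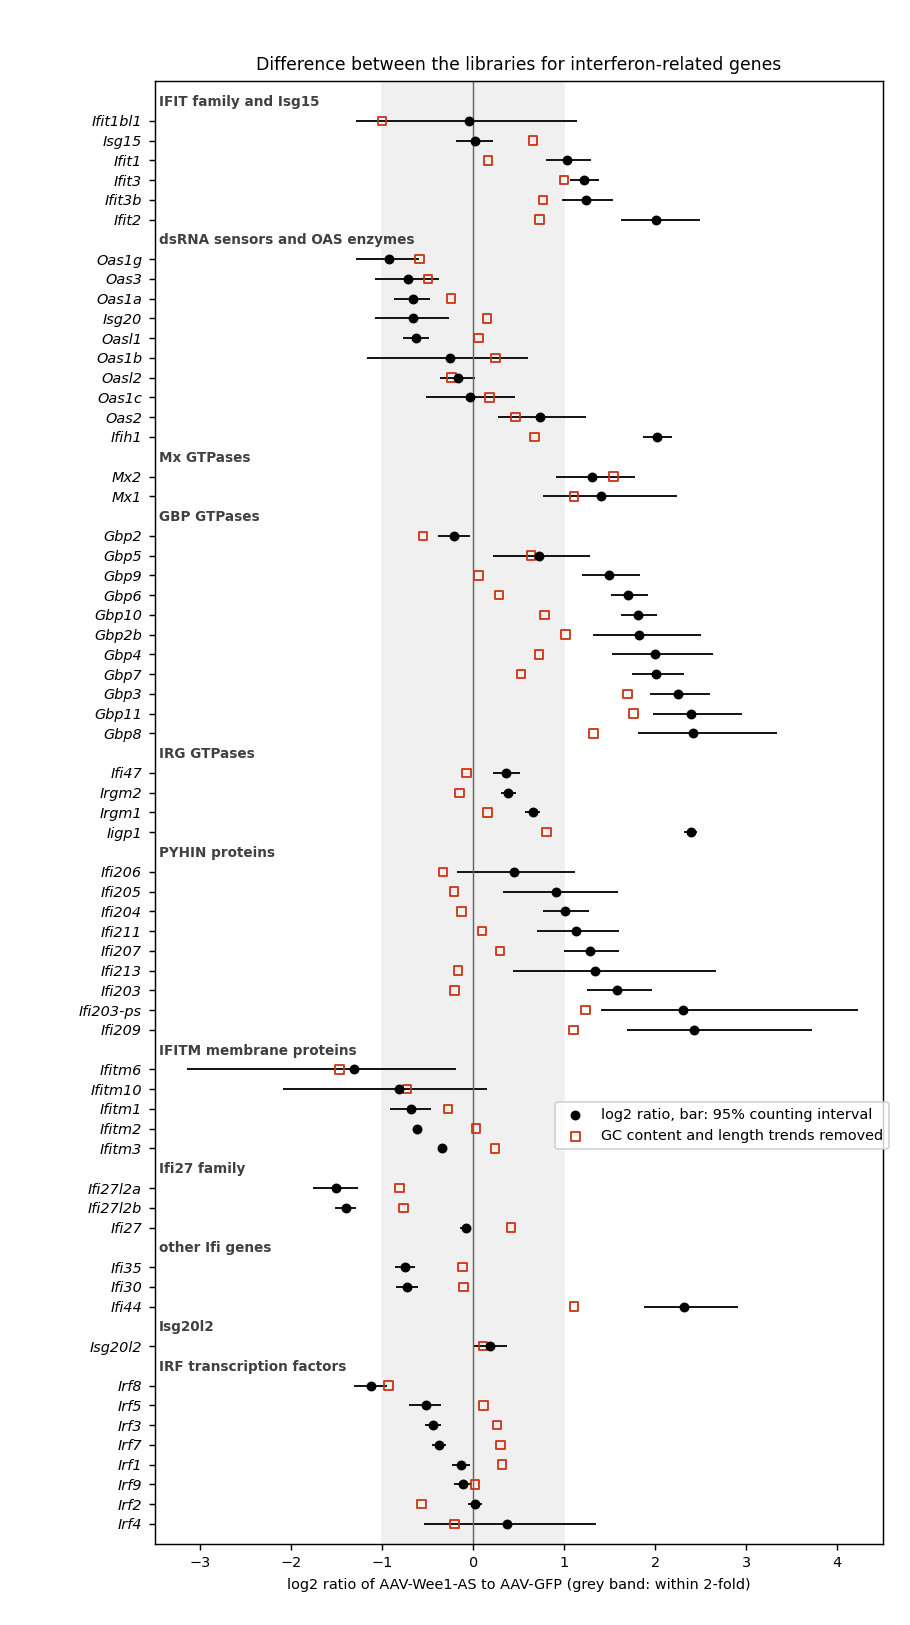
The log2 ratio (AAV-*Wee1-AS* over AAV-GFP) for 62 of the 63 measured genes (filled circles, bars for the 95% counting interval) and the same ratio with trends in GC content and transcript length removed (open squares), the grey band marking less than a 2-fold difference. The PYHIN circles and those of the *Gbp* genes other than *Gbp2* lie to the right of 0, the *Ifitm* and *Ifi27* circles to the left, and most squares lie closer to 0.

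The level of some genes was assigned to other transcript models in one library than in the other. Of the *Irf1* counts, a model of 2298 bases held 81.3% in the AAV-GFP and 7.51% in the AAV-*Wee1-AS* library, whereas a model of 2138 bases held 1.36% and 78.6%. For *Ifi47*, a model of 1727 bases held 53.2% and 7.63%. These are estimated shares of reads among overlapping models. The gene counts and their ratios above do not depend on them, whereas TPM, which is corrected for transcript length, does.

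The ratios followed base composition. Across the 63 genes, the Spearman coefficient between the log2 ratio and the GC content of the longest GENCODE transcript was -0.80, and across all 14995 genes with a value it was -0.67. Both are descriptions over genes that share the same 2 libraries. Of the 18 genes with a GC content of 40 to 45%, 16 were more than 2-fold higher, with a median log2 ratio of 1.82. All genes in this range had a median of 1.13 and 55.1% of them were more than 2-fold higher. Among the 20 genes with a GC content of 50 to 55%, 1 was higher and 3 were lower, with a median of -0.64. All genes in this range had a median of -0.33, with 4.32% higher and 10.3% lower. The *Gbp* genes had a median GC content of 43.6% and the PYHIN genes of 40.6%, and the *Ifitm* and *Ifi27* genes had medians of 51.8% and 52.9%. GC content thus moved with the families as their ratios did, and its part in the ratios was not tested. The source of the trend cannot be told apart from the treatment with 1 library per group.

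**Figure D3:**
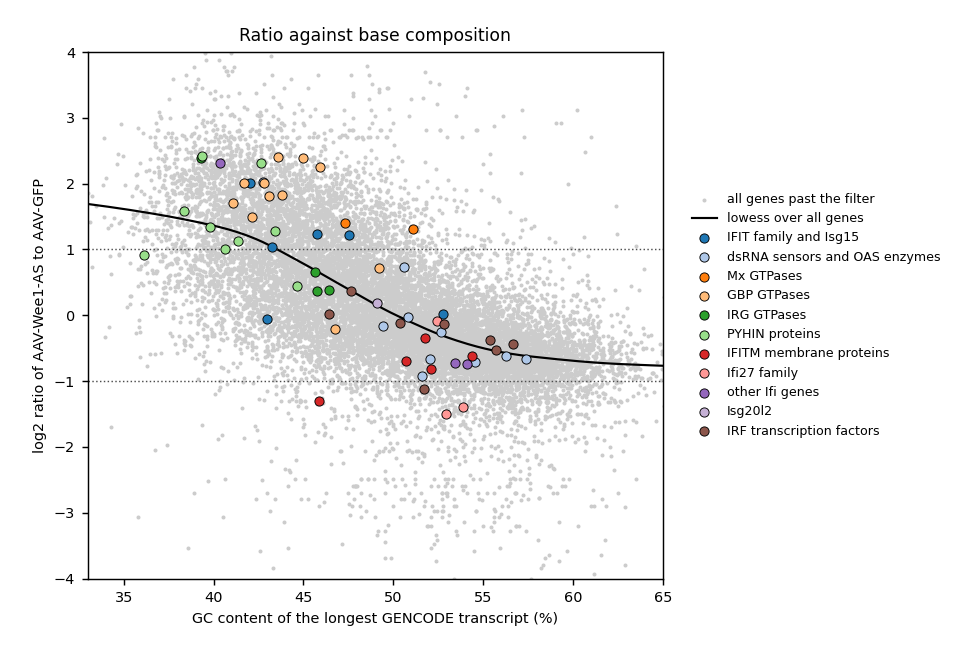
The log2 ratio (AAV-*Wee1-AS* over AAV-GFP) against GC content, with all measured genes in grey (values beyond the axes are not drawn), the lowess line through them in black and 62 of the 63 interferon-related genes in color by family. The colored points descend with the grey ones from left to right, and several *Gbp* points and both *Mx* points lie above the line.

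When lowess trends with GC content and transcript length over all genes were removed, the median log2 ratio of the 63 genes was 0.16. More than 2-fold higher were 9 genes (14.3%, against 6.68% of all genes), and 2 were lower (3.17%, against 8.18%). The 9 were *Gbp2b* (1.01), *Gbp3* (1.70), *Gbp8* (1.32), *Gbp11* (1.76), *Mx1* (1.11), *Mx2* (1.54), *Ifi44* (1.11), *Ifi209* (1.10) and *Ifi203-ps* (1.23). All 9 were also more than 2-fold higher before removal, which held for 5.58% of all genes. Of these 9, *Gbp3*, *Gbp11*, *Gbp2b*, *Mx2* and *Ifi44* had at least 100 counts in a library. The 2 lower genes, *Ifitm6* (-1.47) and *Ifit1bl1* (just past 2-fold), had at most 21 counts.

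The families separated differently on this scale. The median of the *Gbp* genes went from 1.82 to 0.72, with 10 of 11 above 0 and 4 in place of 9 more than 2-fold higher. That of *Isg15* with the *Ifit* genes went from 1.13 to 0.69, with 0 in place of 4 higher and 1 lower. *Isg15* stood at 0.66 and *Ifit3* at 1.00. The median of the PYHIN genes went from 1.29 to -0.13, with 4 of 9 above 0 and 2 in place of 7 higher, and that of the IRGs from 0.52 to 0.04, with *Iigp1* at 0.80. *Ifih1* was at 0.67, the *Oas* and *Oasl* genes had a median of -0.09, and *Ifitm3* and *Ifitm2* stood at 0.24 and 0.03. *Ifi27l2a* (-0.81), *Ifi27l2b* (-0.76) and *Irf8* (-0.93) were lower but no longer past 2-fold. The IRFs had a median of 0.11.

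The other genes of the pathway were placed in lists by function. Of 21 interferon genes, 19 had no count in either library, among them *Ifnb1* and all *Ifna* genes listed. *Ifng*, type II interferon, had 10 and 2 counts, and *Ifnz* 0 and 1. Of the 5 measured receptor genes none was past 2-fold. *Ifnar1* had 1566 and 1722 counts (0.40), *Ifnar2* 3305 and 2414 (-0.19), *Ifngr1* 991 and 782 (-0.08) and *Ifngr2* 1766 and 776 (-0.92). *Il10rb*, the shared chain of the type III receptor, had 668 and 480 counts (-0.21), and *Ifnlr1* had 0 and 2.

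Among the 8 genes of the JAK-STAT pathway and its brakes, only *Jak2* was past 2-fold, with 150 and 681 counts, a log2 ratio of 2.43 (2.19 to 2.71) and 1.12 with the trends removed. *Jak1* had 3413 and 5095 counts (0.84) and *Tyk2* 1793 and 912 (-0.71). *Stat2*, itself interferon-induced, had 1723 and 1806 counts (0.33). Of the brakes, *Usp18* is itself induced by type I interferon and releases ISG15 from proteins. *Usp18* had 777 and 371 counts (-0.80), *Socs3* 693 and 551 (-0.07) and *Socs1* 40 and 18 (-0.83). With the trends removed, *Jak1* stood at 0.21, *Tyk2* at -0.38 and *Stat2* at 0.37. On that scale *Usp18* was at -0.50, *Socs3* at 0.53 and *Socs1* at 0.03.

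These counts are to be read against the shares of all genes, 22.2% higher and 8.71% lower, or 6.68% and 8.18% with the trends removed. Of the 16 genes of nucleic acid sensing, 4 were more than 2-fold higher and none lower, and with the trends removed 0 were higher and 0 lower. The 3 with the most counts were *Mavs*, the mitochondrial adaptor of MDA5 (7966 and 5146 counts, -0.37), *Ddx58*, which encodes RIG-I (1299 and 1415 counts, 0.39), and the RNA-editing enzyme *Adar* (1459 and 1110 counts, -0.13). Of 36 interferon-stimulated genes of other families, *Usp18* again among them, 15 were more than 2-fold higher and none lower, with a median of 0.53 and, with the trends removed, 0.13, where 1 was higher and none lower. The 3 most abundant of these lay below 0, namely *Lgals9* (55350 and 30545 counts, -0.59), *Lgals3bp* (12779 and 5864, -0.86) and *Bst2*, tetherin (7299 and 4174, -0.54). With the trends removed these 3 stood at -0.17, -0.20 and 0.25, so *Bst2* changed sign.

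Of 19 measured targets of interferon gamma, 3 were more than 2-fold higher and 3 lower, with a median of -0.52. With the trends removed, 1 was higher and 1 lower, the median was 0.03, and 10 of the 19 lay above 0. *Cd74*, the invariant chain of MHC class II, had 12055 and 4030 counts (-1.32, -1.37 to -1.27), and *Tapbp*, of MHC class I loading, had 7384 and 4279 (-0.52). With the trends removed, *Cd74* stood at -0.54 and *Tapbp* at 0.14. *Ciita*, the master regulator of MHC class II, named after its value was seen, had 347 and 98 counts (-1.54, -1.90 to -1.23) and -1.67 with the trends removed. The lower *Irf8* and *Ciita* and the higher *Gbp* genes were measured in the same 2 libraries.

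**Figure D4:**
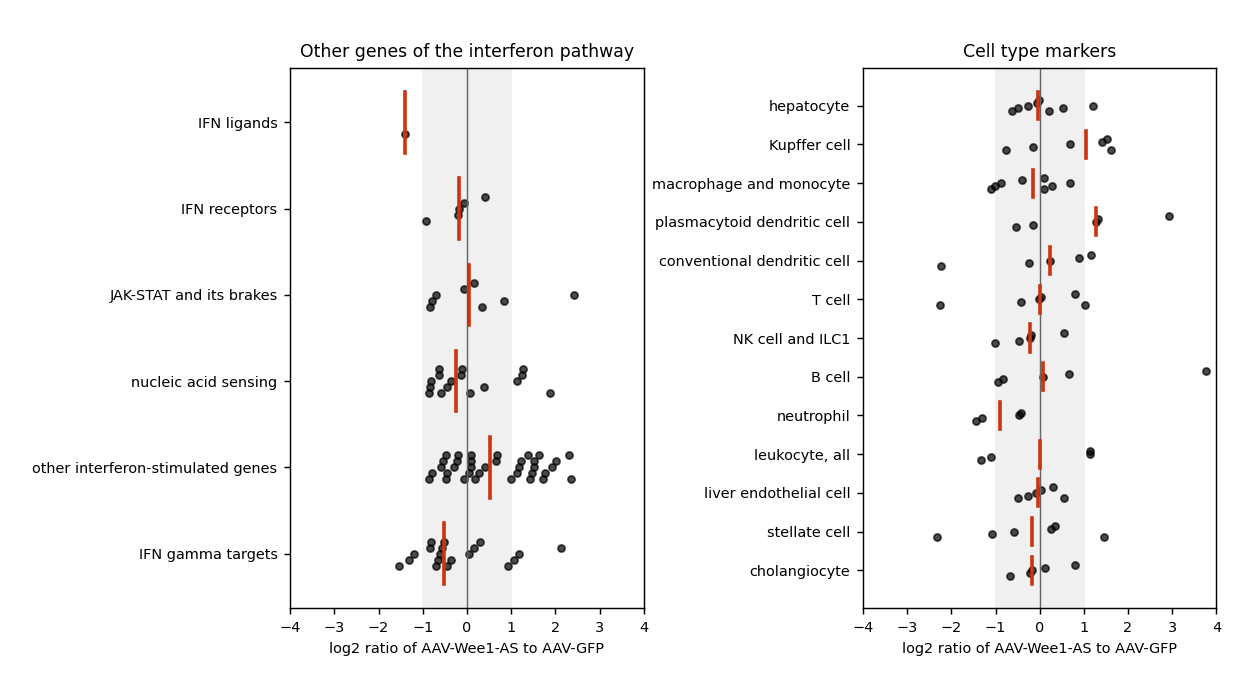
The log2 ratio (AAV-*Wee1-AS* over AAV-GFP) for other genes of the interferon pathway (left) and for cell type markers (right), with 1 point per measured gene, a red line at the median of each list and the grey band for less than a 2-fold difference. The vertical offset of points within a list separates them and carries no value. The medians of the pathway lists other than the single interferon gene lie within the band, and those of the Kupffer cell and plasmacytoid dendritic cell lists lie to the right of it.

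Several of these genes are expressed mostly in immune cells, so markers of those cells were measured in the same way, with counts past 2-fold that stand beside the same shares of all genes (22.2% higher and 8.71% lower). Of the 4 pan-leukocyte markers, *Ptprc* and *Cd53* were higher and *Coro1a* and *Laptm5* lower, and their summed level was 65.4 TPM in the AAV-GFP and 33.1 TPM in the AAV-*Wee1-AS* library. With the trends removed, all 4 lay below 0, between -0.51 and -0.07, and none was past 2-fold. Of 6 Kupffer cell markers, 3 were more than 2-fold higher and none lower, with sums of 385 and 360 TPM, and with the trends removed 1 was higher. Of 8 macrophage and monocyte markers, 2 were lower and none higher (188 and 156 TPM), with the trends removed as well. Of 5 markers of conventional dendritic cells (4.88 and 3.19 TPM), *Clec9a* was higher (18 and 36 counts) and *Itgax* lower (421 and 73 counts). With the trends removed 0 were higher and 2 lower, namely *Itgax* and *Xcr1*, which had 16 counts in each library. Of 5 markers of plasmacytoid dendritic cells, 3 were higher and none lower (276 and 187 TPM, nearly all *Bst2*), and with the trends removed 1 was higher. Of 4 measured neutrophil markers, 2 were lower and none higher (14.6 and 7.08 TPM), with the trends removed as well, and the defining *Ly6g* had no count in either library. The T cell, NK cell and B cell lists stayed below 4 TPM in sum in both libraries. Of 6 T cell markers, *Cd4* was higher (47 and 81 counts) and *Cd8a* lower (31 and 4 counts), on both scales. Of 5 NK cell markers, *Nkg7* was lower (51 and 20 counts), and with the trends removed *Prf1* was higher and *Gzma* lower instead. Of 5 B cell markers, *Ms4a1* was higher (0 and 23 counts), on both scales. Of 6 stellate cell markers, *Lrat* was higher and *Col1a1* and *Pdgfrb* were lower (115 and 117 TPM in sum), and with the trends removed *Col1a1* (3620 and 603 counts) was the only one lower and none was higher. None of the 6 endothelial or 5 cholangiocyte markers was past 2-fold on either scale. The part of these cell types in the ratios above was not tested.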

How the data were processed

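The deposited table lists transcripts of mm10 with RefSeq identifiers. The submitters' processing notes name Trimmomatic 0.38, HISAT2 2.1.0, SAMtools 1.9 and StringTie 2.1.3b. The authors deposited estimated counts as unnormalized whole numbers per transcript, divided by their software among overlapping transcripts. The FPKM and TPM values were deposited by the authors beside them and are scaled to each library, and the transcript length was deposited too. The kit was stranded and selected poly-A RNA. No reads were aligned again.

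For each gene symbol, the estimated counts and the TPM of its transcripts were added up. Scaling used TMM in edgeR (version 4.0.16, R version 4.3.3), which gave a factor of 1.02 to the AAV-GFP library and 0.980 to the AAV-*Wee1-AS* library. A gene was kept if either library had 10 or more counts, log2 ratios used a prior count of 2, and genes past a fold of 2 or 0.5 were counted. The library totals of 55466182 and 48079335 set the precision, which the exact 95% counting intervals describe. GC content came from the longest GENCODE transcript, and lowess trends (span 0.3, 5 cycles) were removed in turn. Shared sequence was the percentage of 50-base words of a gene that also occur in another. Promoters came from RefSeq. The Python version was 3.11.15, with statsmodels 0.14.6, scipy 1.17.1, numpy 2.4.6, matplotlib 3.10.9 and pandas 2.3.3. The steps were tested on simulated data.

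The symbol rule uses no measured value, but this group of genes and the lists were chosen with earlier results of these data known. Every gene found by symbol could be named, with fuller values for those with at least 100 counts in a library or an interval wholly past 2-fold. From the pathway lists, the receptors, the JAK-STAT genes and the 3 genes with the most counts of each other list were named. The alternatives tried were scaling by totals, by the size factors of DESeq2 (version 1.42.0) or by the upper quartile, other count filters, a prior count of 0.5, FPKM or TPM with a pseudocount of 1, and removal of trends. *Wee1-AS* itself was not analysed here, and single values of a few genes that enter the counts are not reported here.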

Additional observations from a re-analysis of the deposited data

How the results depend on the processing

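The count of genes more than 2-fold higher, 25, was 9 with TPM and a pseudocount of 1 (14.3%, against 10.1% of all genes). It was 5 with FPKM and a pseudocount of 1 (7.94%, near the 6.49% of all genes). With the GC content and length trends removed it was 9 (14.3%, against 6.68%). The count of lower genes, 4, was 2 under each of these 3 settings, and with the trends removed *Ifit1bl1*, not among the 4, was 1 of the 2. These 2 were 3.17% of the 63, against 2.76%, 1.94% and 8.18% of all genes under TPM, FPKM and trend removal. A pseudocount shrinks ratios of genes near 1 TPM by construction. With trends removed, of the genes past 2-fold, *Ifi203* (-0.20), *Ifi204* (-0.13) and *Ifi213* (-0.17) changed sign. Under the upper quartile, the median of all genes moved from -0.02 to -0.22. On that scale 22 genes were higher (34.9%, against 18.5% of all genes) and 6 lower (9.52%, against 14.1%). *Isg15*, *Irf2* and *Isg20l2*, near 0, came to lie below it. Under the other settings, namely library totals, DESeq2 size factors, other count filters, a prior count of 0.5 and removal of the length trend alone, 20 to 28 genes were higher and 3 to 5 lower. The shares were 36.5% to 41.7% higher and 4.92% to 7.94% lower. Those of all genes were 10.4% to 22.7% and 4.64% to 10.4%. No paired analysis was possible because each group has 1 library, and no library could be left out. Genes with few counts, such as *Mx1*, *Ifi209* and *Ifitm6*, are limited by depth.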
